A study of Mus musculus with 9 samples.

Results

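Lgals3bp, which encodes a secreted glycoprotein that binds galectin 3 and is known to be induced by interferons, was measured in the mouse substantia nigra together with 9 genes of the interferon response: Ifit1, Ifit2, Ifit3, Irf1, Irf7, Irf9, Ifitm3, Usp18 and Gbp2. All probe sets whose gene symbol in the platform annotation is one of these names were taken, and a probe set is a group of short probes that reads 1 transcript. This gave 11 probe sets of the 45037 tested, and 10 genes of the 17097 that a single-gene probe set names. Gbp2 has 2 probe sets and each of the other genes has 1. Lgals3bp was chosen by its measured fall in the methylphenidate (MPH) arrays, so its values are given as a description with no test.

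The substantia nigra is the midbrain region whose dopamine neurons project to the striatum, and MPH is a psychostimulant that blocks the dopamine and noradrenaline transporters. The arrays ask which transcripts differ in this tissue after long exposure to the drug. Swiss Webster mice were given daily intraperitoneal saline (3 arrays), MPH at 1 mg/kg (3 arrays) or MPH at 10 mg/kg (3 arrays) on school days, beginning shortly after weaning and lasting 3 months, and the tissue was taken after a drug-free week. The labels name no transgene or lesion in any group. The labels give a treatment and a replicate code for each array and do not say whether tissue was pooled. The p-values therefore measure only the spread between these arrays, which may be partly technical.

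The dose names of the MPH groups are in doubt. Of the differences from saline listed in the study's supplement, 76 under 1 mg/kg and 36 under 10 mg/kg could be matched to a probe set here. All of these equal, within 0.0005, the difference of a probe set in the arrays labelled with the other dose. The remaining entries were not checked. The groups are therefore called by their array labels, and no order by dose is read from them. The supplement also lists Lgals3bp, chosen on these same arrays.

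Interferons are cytokines released on viral infection, and type I interferons bind the receptor made of Ifnar1 and Ifnar2, while interferon gamma binds Ifngr1 and Ifngr2. The receptors act through the kinases Jak1, Jak2 and Tyk2 on STAT proteins, and Irf9 joins Stat2 in the complex that binds interferon-stimulated response elements in target promoters. In the brain, microglia, astrocytes, endothelial cells and neurons can all respond, and a low constant level of many of these transcripts is present without infection.

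Promoter sequence is shown for Lgals3bp and Irf7, whose groups separate in the results, and for Ifit1, Ifit3 and Gbp2, which carry the known interferon-stimulated response element before their starts. RefSeq promoter windows of 300 bases, from 250 before to 50 after an annotated transcript start (build GRCm38.p6), were found for 9 of the 10 members, with 12 windows in all. Usp18 had no entry. The interferon-stimulated response element was searched as GAAANNGAAA and the gamma-activated site as TTCNNNGAA, where N is any base, on both strands. The response element is present in 3.44% of all 32851 windows and the gamma-activated site in 8.30%. A shorter core, AAANNGAAA, which lies inside the full element and was added after the promoters were seen, is present in 10.6%. The 250 bases before each start are printed 5′ to 3′ in the direction of the gene, with matches to the full element or its core on either strand in capitals. The windows are chr11:118401960-118402209 (minus strand) for Lgals3bp, chr19:34640639-34640888 (plus strand) for Ifit1, chr19:34583279-34583528 (plus strand) for Ifit3, chr3:142620413-142620662 (plus strand) for Gbp2 and chr7:141266425-141266674 (minus strand) for Irf7.
Lgals3bp: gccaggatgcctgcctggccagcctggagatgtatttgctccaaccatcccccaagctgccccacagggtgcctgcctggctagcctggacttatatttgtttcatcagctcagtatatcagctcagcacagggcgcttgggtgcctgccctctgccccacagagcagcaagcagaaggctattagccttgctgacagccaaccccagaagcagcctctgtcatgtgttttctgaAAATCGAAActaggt
Ifit1: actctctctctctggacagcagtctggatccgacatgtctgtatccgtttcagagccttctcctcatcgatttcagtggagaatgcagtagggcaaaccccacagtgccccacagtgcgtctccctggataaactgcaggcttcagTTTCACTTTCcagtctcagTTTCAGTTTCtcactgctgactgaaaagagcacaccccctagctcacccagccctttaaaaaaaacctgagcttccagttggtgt
Ifit3: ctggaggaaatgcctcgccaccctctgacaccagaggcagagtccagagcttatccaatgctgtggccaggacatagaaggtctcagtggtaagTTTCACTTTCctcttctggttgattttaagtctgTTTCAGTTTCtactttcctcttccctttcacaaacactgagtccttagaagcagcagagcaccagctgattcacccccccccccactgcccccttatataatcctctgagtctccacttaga
Gbp2: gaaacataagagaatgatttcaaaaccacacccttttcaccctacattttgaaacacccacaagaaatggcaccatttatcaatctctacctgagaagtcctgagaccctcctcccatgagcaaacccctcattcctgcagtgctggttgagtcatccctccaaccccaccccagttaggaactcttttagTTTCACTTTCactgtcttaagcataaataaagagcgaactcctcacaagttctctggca
Irf7: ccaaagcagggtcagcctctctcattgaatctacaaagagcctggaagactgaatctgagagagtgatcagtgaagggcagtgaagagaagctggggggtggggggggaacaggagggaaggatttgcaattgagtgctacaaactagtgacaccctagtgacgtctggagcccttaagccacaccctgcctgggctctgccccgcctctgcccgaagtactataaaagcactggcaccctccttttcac

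Ifit1 and Ifit3 each held the full element 2 times, with first bases 104 and 85 bases before the start in Ifit1 and 156 and 122 bases before it in Ifit3. The Ifit3 window lies inside the annotated gene (chr19:34583119-34588982), whose first base is further upstream. Gbp2 held 1 match, 59 bases before its start. Lgals3bp (gene at chr11:118392747-118401959) held only the core, as AAATCGAAA, 15 bases before its start. Ifitm3 carried the letters GAAAAGGAAA and GAAACCGAAA, which begin 2 and 19 bases after its start, and a gamma-activated site, TTCTGAGAA, which begins 13 bases after it and overlaps the second element. Irf1 held a gamma-activated site, TTCCCCGAA, 90 bases before its start, and Ifit2 held TTCCTGGAA 241 bases before 1 of its 2 starts. Neither window of Ifit2, a neighbour and relative of Ifit1 and Ifit3, held the full element or the core. In all, 4 members had the full element, 3 the gamma-activated site and 5 the core. Of all 27025 genes with a window, 3.99%, 9.55% and 12.1% had them. The windows of Irf7 and Irf9 held none of these letters. The starts used for Irf7 and both starts used for Ifit2 lie inside the annotated genes (chr7:141263183-141266499 and chr19:34550550-34576534). The sequence before the first bases of these 2 genes was therefore not searched in full.

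**Figure D1:**
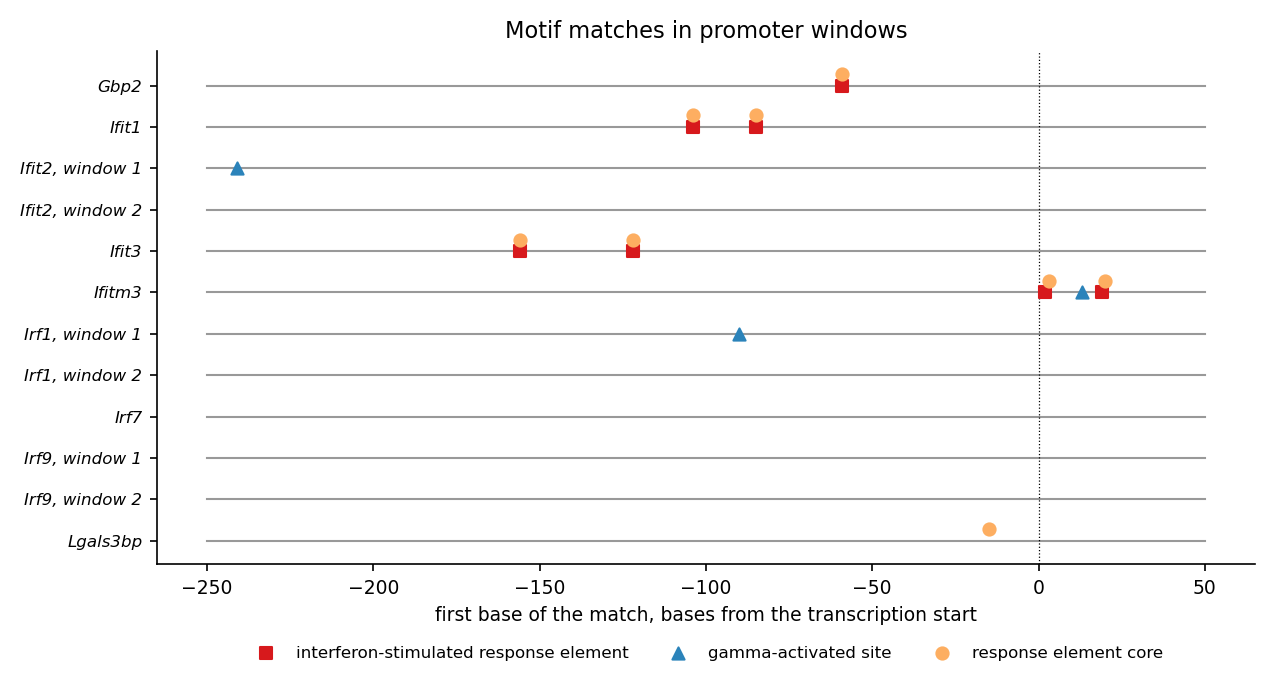
Positions of motif matches in the 12 promoter windows of 9 members. The horizontal axis is the distance of the first base of a match from the transcript start in bases, each line is a window, and symbols mark the motif. Ifit1, Ifit3 and Gbp2 carry the full element before the start, Lgals3bp carries only the core, and the lines of Irf7 and Irf9 are empty.

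Values are log2 intensities, so a difference of 1 is a 2-fold change in signal. Signal without target was judged from 40 control probe sets that match no transcript, with a median of 2.99 and a 95th percentile of 3.58. All 11 member probe sets had a mean above 3.58, and Irf7 lay nearest to it. Markers of dopamine neurons were well above background (mean log2 value of 7 markers 9.23 to 9.96 over the 9 arrays). Some arrays stood apart from their group for tissue content. The mean of 6 forebrain excitatory neuron markers was 5.83 in replicate 1 labelled 10 mg/kg, against 4.49 to 4.95 in saline. The mean of 3 thalamus markers was 6.72 in saline replicate 2, against 7.92 and 7.95 in the other saline arrays, and the mean of 2 raphe serotonin neuron markers was 4.16 in saline replicate 1, against 6.95 and 6.26.

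Lgals3bp was lower in every MPH array than in any saline array. Its log2 values were 6.23, 6.14 and 6.01 in saline, 5.75, 5.49 and 5.57 in the arrays with the label 1 mg/kg, and 5.31, 5.60 and 5.31 in those labelled 10 mg/kg. The MPH groups overlapped each other and neither overlapped saline. Group means were 6.13 ± 0.11 (SD, n = 3) in saline, 5.60 ± 0.13 in the arrays with the label 1 mg/kg and 5.41 ± 0.16 in those labelled 10 mg/kg. The log2 difference from saline was -0.52 for the label 1 mg/kg, or 0.696 of the saline signal. It was -0.72 for the label 10 mg/kg, or 0.608 of the saline signal. Both comparisons use the same 3 saline arrays. The MPH groups differed from each other by -0.20. Counted from the most negative difference, Lgals3bp stood at position 267 of 45037 for the label 1 mg/kg and at position 39 for the label 10 mg/kg. Without replicate 1 labelled 10 mg/kg the difference was -0.61. In bulk tissue, fewer cells of a type and less RNA per cell cannot be told apart.

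None of the other 9 genes was lower in every MPH array than in any saline array. With limma and Benjamini-Hochberg adjustment over all probe sets at 0.05, 0 of their 10 probe sets passed in the arrays with the label 1 mg/kg, where 0% of all probe sets passed, and 0 of 10 in the arrays with the label 10 mg/kg, where again 0% passed. Without the replicate number as a block the counts were also 0 of 10 for both labels, against 0.12% and 0.255% of all probe sets. At an unadjusted p of 0.05, 0 of 10 passed for the label 1 mg/kg (10.3% of all probe sets) and 1 of 10, Irf7, for the label 10 mg/kg (9.59% of all probe sets). Without the block the unadjusted counts were the same, against 18.5% and 17.7% of all probe sets. The median log2 difference of the 10 probe sets was 0.04 for the label 1 mg/kg, with 6 above 0 and 4 below it, and -0.01 for the label 10 mg/kg, with 5 above and 5 below. The medians of all probe sets were -0.005 and -0.008.

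**Figure D2:**
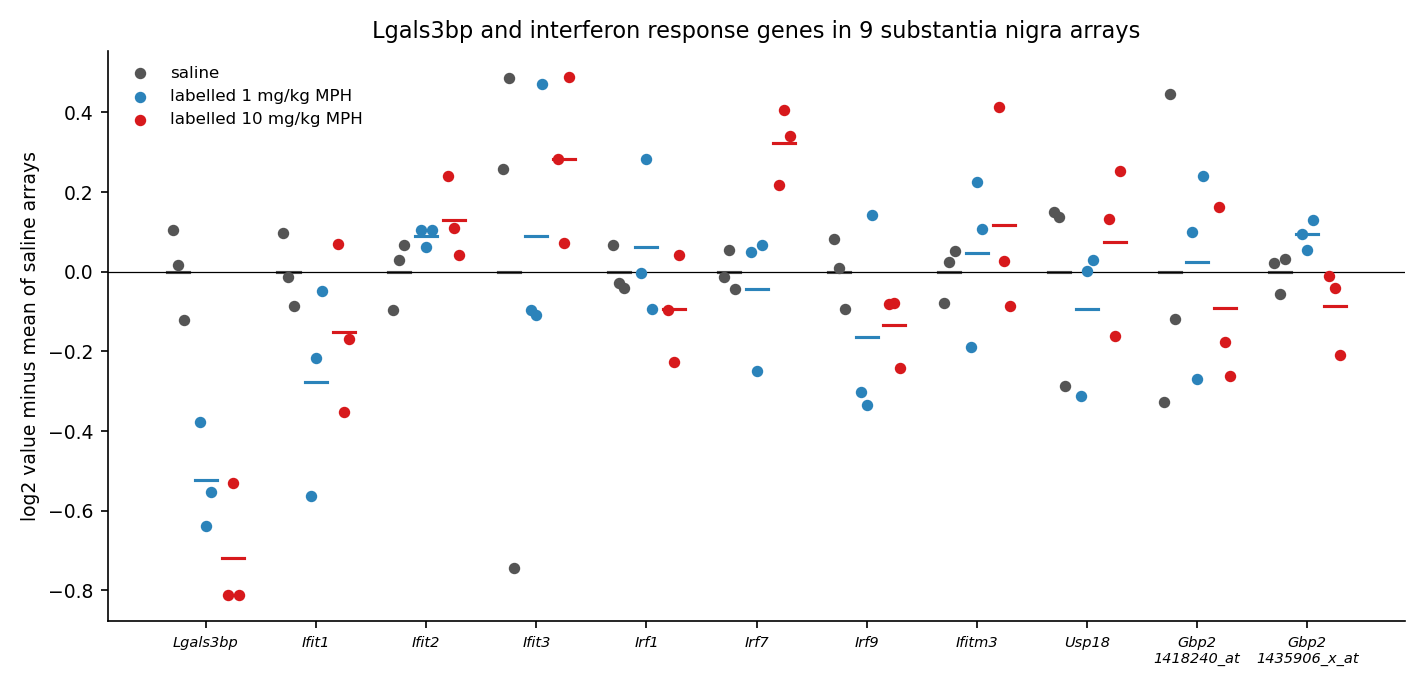
Log2 value of each member probe set minus its mean in the saline arrays, 1 point per array and 3 arrays per group, with a bar at each group mean. All 6 MPH points of Lgals3bp lie below its saline points, the 3 points labelled 10 mg/kg of Irf7 lie above its other points, and the groups of the other genes are mixed, apart from the second Gbp2 probe set.

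Among the transcription factors of the pathway, Irf7 was the one whose groups separated. Irf7 amplifies the type I interferon response by driving interferon alpha genes, and it is itself interferon-induced. Its log2 values were 3.70, 3.77 and 3.67 in saline, 3.76, 3.46 and 3.78 in the arrays with the label 1 mg/kg, and 3.93, 4.12 and 4.06 in those labelled 10 mg/kg. All 3 arrays labelled 10 mg/kg were above the 6 others, while saline and the label 1 mg/kg overlapped. The log2 difference from saline was 0.32 ± 0.11 (SE; 95% interval 0.07 to 0.57) for the label 10 mg/kg, and its adjusted p of 0.457 in limma missed the threshold (0.139 without the replicate block). For the label 1 mg/kg it was -0.04 (95% interval -0.29 to 0.21, adjusted p = 0.912). The values lie close to the background limit of 3.58, with a saline mean of 3.71 ± 0.05 (SD, n = 3). With an array left out the difference lay between 0.24 (without replicate 2 labelled 10 mg/kg) and 0.39 (without replicate 1 labelled 10 mg/kg). Its unadjusted call was lost without saline replicate 1, saline replicate 3 or replicate 2 labelled 10 mg/kg.

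Irf9, the DNA-binding partner of Stat2, had log2 values of 5.95, 5.88 and 5.78 in saline, 5.57, 5.54 and 6.01 in the arrays with the label 1 mg/kg, and 5.79, 5.79 and 5.63 in those labelled 10 mg/kg. The groups overlapped, since the highest of the 9 values was in replicate 3 labelled 1 mg/kg. The differences from saline were -0.16 (adjusted p = 0.709, limma) and -0.13 (adjusted p = 0.774) for the labels 1 mg/kg and 10 mg/kg. Irf1, which drives genes induced by interferon gamma, ranged from 5.52 to 6.03 over the 9 arrays with both extremes in MPH arrays. Its differences were 0.06 (adjusted p = 0.885) and -0.09 (adjusted p = 0.828).

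The IFIT genes encode proteins that bind viral RNA and block its translation. They lie side by side on chromosome 19 and are known interferon-induced genes. Ifit1 had log2 values of 4.82, 4.71 and 4.63 in saline, 4.16, 4.50 and 4.67 in the arrays with the label 1 mg/kg, and 4.79, 4.37 and 4.55 in those labelled 10 mg/kg. In each MPH group 1 array lay within the saline range and the other 2 lay below it. The differences of -0.28 ± 0.16 (SE) and -0.15 ± 0.16 had adjusted p values of 0.572 and 0.774 in limma, and the interval for the label 1 mg/kg ran from -0.64 to 0.09. Single arrays weighed heavily: without replicate 1 labelled 1 mg/kg the first difference was -0.05, and without replicate 2 labelled 10 mg/kg the second was -0.04.

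Ifit2 was the steadiest of the IFIT genes, with a lowest value of 7.15 in saline replicate 1 and a highest of 7.49 in replicate 1 labelled 10 mg/kg. Its differences were 0.09 (95% interval -0.11 to 0.29) and 0.13 (95% interval -0.07 to 0.33). These intervals are unadjusted and rest on SDs within groups that may be too small. Ifit3 was the least steady. It read 6.23, 6.46 and 5.23 in saline, 5.87, 5.86 and 6.44 in the arrays with the label 1 mg/kg, and 6.26, 6.04 and 6.46 in those labelled 10 mg/kg. Saline replicate 3 was the lowest of the 9 arrays, and the remaining 8 spanned 5.86 to 6.46. The differences of 0.09 and 0.28 had an SE of 0.33 and adjusted p values of 0.945 and 0.803, and their intervals (-0.67 to 0.85 and -0.48 to 1.04) hold changes of both signs. Without saline replicate 3 the differences were -0.43 and -0.24.

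Ifitm3 encodes a membrane protein that restricts virus entry and is also found in endothelial cells and reactive glia. Its values ran from 7.78 to 7.91 in saline, 7.67 to 8.08 in the arrays with the label 1 mg/kg and 7.77 to 8.27 in those labelled 10 mg/kg. Each MPH group reached both below and above the saline range, and the highest value was again in replicate 1 labelled 10 mg/kg, without which the sign of the second difference turned (-0.11). The differences from saline were 0.05 (adjusted p = 0.936, limma) and 0.12 (adjusted p = 0.832). Usp18, an isopeptidase that blocks signalling at the type I interferon receptor, read 4.27, 4.26 and 3.84 in saline, 3.81, 4.12 and 4.15 in the arrays with the label 1 mg/kg, and 4.25, 3.96 and 4.38 in those labelled 10 mg/kg. Low and high arrays occurred in all 3 groups. Its differences were -0.09 (adjusted p = 0.878) and 0.07 (adjusted p = 0.911).

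Gbp2, an interferon-inducible GTPase that attacks pathogen vacuoles, was read by 2 probe sets that differed in their spread. The first, 1418240_PM_at, ranged from 4.33 to 5.10 in saline alone, which covers all 6 MPH arrays, and differed from saline by 0.02 and -0.09 with an SE of 0.23 (adjusted p = 0.981 and 0.921, limma). The second, 1435906_PM_x_at, read 5.26, 5.18 and 5.27 in saline, 5.33, 5.29 and 5.37 in the arrays with the label 1 mg/kg, and 5.23, 5.20 and 5.03 in those labelled 10 mg/kg. The x in its name marks probes that can also bind related sequences, and Gbp2 has close relatives in the same gene cluster. Every array labelled 1 mg/kg was above saline, and the arrays labelled 10 mg/kg overlapped saline. The differences from saline were 0.09 ± 0.08 (SE, adjusted p = 0.713) and -0.09 ± 0.08 (adjusted p = 0.744).

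**Figure D3:**
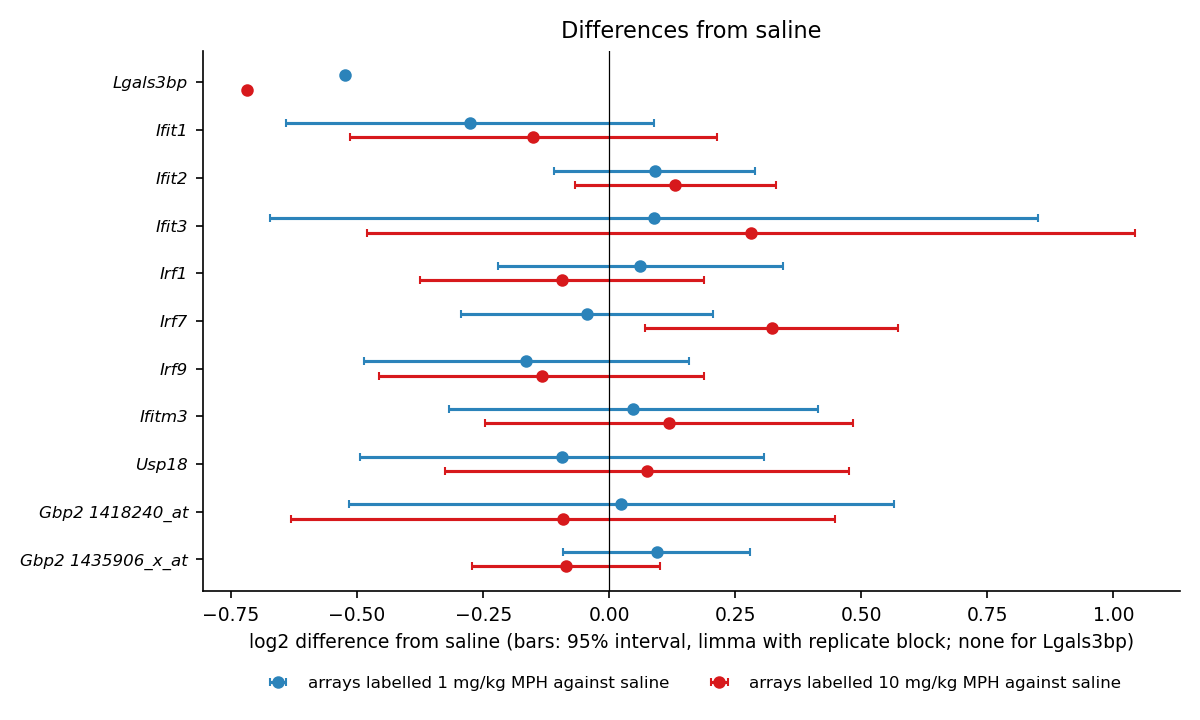
Log2 difference from saline for each member probe set, with 95% intervals from limma, 3 arrays per group. Lgals3bp, chosen by its fall, is shown without intervals. Of the 20 intervals of the other genes the one of Irf7 for the label 10 mg/kg excludes 0 before adjustment. The intervals of Ifit3 are the widest.

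Separation of groups was set beside its frequency over the whole array. For the label 1 mg/kg, 1 of the 10 probe sets (the second of Gbp2) did not overlap saline, against 23.1% of all probe sets. For the label 10 mg/kg, 1 of 10 (Irf7) did not overlap saline, against 23.4%. Between the MPH groups 2 of 10 did not overlap, with Irf7 higher and the second Gbp2 probe set lower for the label 10 mg/kg, against 18.2% of all probe sets. The shares of the member genes were thus below or close to those of all probe sets.

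The MPH groups were also compared with each other directly. After adjustment in limma, 0 of the 10 probe sets passed, where 0% of all probe sets passed with the replicate block and 0% without it. At an unadjusted p of 0.05, Irf7 passed (1 of 10, against 6.39% of all probe sets), with a difference of 0.37 (95% interval 0.12 to 0.62, adjusted p = 0.774). The second Gbp2 probe set differed by -0.18 (95% interval -0.37 to 0.01, adjusted p = 0.774).

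Array-to-array variation was compared over the 45 pairs of the 10 probe sets. Ifit3 and Usp18 had the highest correlation over the 9 arrays, with Pearson's r = 0.80 (exact permutation p = 0.0069, two-sided) and Spearman's rho = 0.80 (exact permutation p = 0.0138). The Benjamini-Hochberg adjusted value over the 45 pairs was 0.312, so the relation did not pass the correction, and 3 pairs reached an unadjusted 0.05. Saline replicate 3 and replicate 1 labelled 1 mg/kg, from different groups, held the lowest Usp18 values. Without the 2 arrays farthest from the median of Ifit3 r was 0.86, and r of the deviations from the group means was 0.82. Values of 1 array share their library and normalization.

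**Figure D4:**
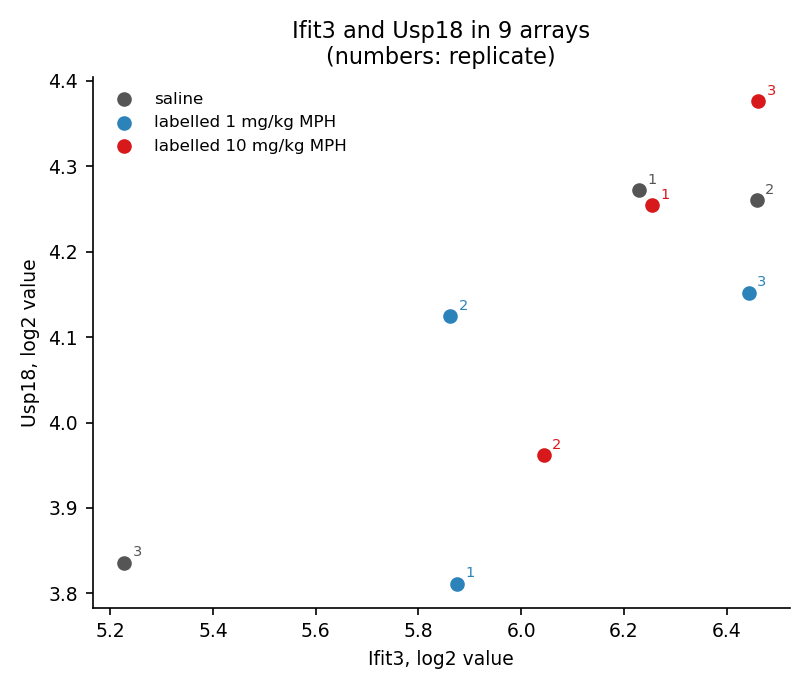
Log2 values of Ifit3 (horizontal axis) and Usp18 (vertical axis) in the 9 arrays, coloured by group and numbered by replicate. Saline replicate 3 is the lowest array for Ifit3 at 5.23, and replicate 3 labelled 10 mg/kg is the highest for both genes, with r = 0.80 over the 9 arrays and r = 0.82 after the group means were removed.

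The wider pathway was read from 7 lists with 110 measured genes, 1 probe set per gene (the brightest), of which 83 were above background and 27 near it. After limma with adjustment over all probe sets 0 of the 110 passed in either comparison with saline, with or without the replicate block. At an unadjusted p of 0.05, 9 genes (8.18%; 3 higher and 6 lower) passed for the label 1 mg/kg and 13 (11.8%; 4 higher and 9 lower) for the label 10 mg/kg, against 10.3% and 9.59% of all probe sets. The median differences were -0.002 and -0.02. Without the replicate block 15 (13.6%) and 20 (18.2%) passed unadjusted, against 18.5% and 17.7% of all probe sets. Of the 110 genes, 21 and 24 did not overlap saline, against 23.1% and 23.4% of all probe sets. These shares and medians lay near those of the whole array.

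The 8 interferon ligands measured, among them Ifnb1, Ifng and Ifna1, were all near background (means of 3.00 to 3.41), so no difference of a ligand could be read. All 14 receptors and signal transducers were above background, with median differences of 0.03 and 0.01. At an unadjusted p of 0.05, 0 of them passed for either label, against 10.3% and 9.59% of all probe sets. The type I receptor chain Ifnar1 differed from saline by 0.02 for both labels, and Ifnar2 by -0.05 and 0.03. For the receptor of interferon gamma, Ifngr1 differed by 0.05 and -0.03 and Ifngr2 by 0.04 and 0.11. The kinase Jak1 differed by 0.18 and 0.16, Tyk2 by -0.09 and -0.26, and the transcription factor Stat2 by 0.05 and -0.01, all given as label 1 mg/kg and then label 10 mg/kg.

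Of the 15 nucleic acid sensors and adaptors, 2 passed an unadjusted p of 0.05 for the label 1 mg/kg and 1 for the label 10 mg/kg. Of all probe sets 10.3% and 9.59% passed. Mavs, the mitochondrial adaptor of the RNA sensors, had 5.18 to 5.27 in the arrays with the label 1 mg/kg against 5.50 to 5.66 in saline, a difference of -0.34 (adjusted p = 0.396), and -0.21 for the label 10 mg/kg (adjusted p = 0.517), which also passed unadjusted. Trim25, a ubiquitin ligase that activates the RNA sensor RIG-I, differed in the other direction (0.45, adjusted p = 0.439, and 0.20 for the label 10 mg/kg). The list had medians of 0.03 and 0.01.

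Antiviral effectors formed the longest list, with 40 genes measured and 30 above background. For the label 1 mg/kg 1 was higher and 4 were lower at an unadjusted p of 0.05. For the label 10 mg/kg 2 were higher and 5 lower. Of all probe sets 10.3% and 9.59% passed in either direction. The medians of the list were -0.02 and -0.04. In this list 9 and 12 of the 40 genes did not overlap saline, against 23.1% and 23.4% of all probe sets. Oasl2, an oligoadenylate synthetase-like protein, differed by -0.13 and -0.33 (adjusted p = 0.667 and 0.424). Lgals9, a galectin, differed by -0.32 and -0.49 (adjusted p = 0.504 and 0.426), with 4.35 to 4.50 in saline, 3.95 to 4.34 for the label 1 mg/kg and 3.75 to 4.17 for the label 10 mg/kg, so its MPH arrays were all below saline. Sp100, a nuclear body protein, lay near background with differences of -0.30 and -0.31. Ifitm2, a close relative of Ifitm3, was named after its values were seen. It differed in the other direction by 0.53 and 0.59 (adjusted p = 0.499 and 0.510, limma). Its values were 5.76 to 6.17 in saline, and all 6 MPH arrays lay above that range.

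Of 10 guanylate binding and immunity related GTPases (8 above background), 1 was higher at an unadjusted p of 0.05 for each label and 0 were lower, with medians of 0.02 and -0.02. That gene was Gbp7, a relative of Gbp2, with differences of 0.34 and 0.21 (adjusted p = 0.392 and 0.512), while its other probe set had the opposite sign. Of 15 antigen presentation and chemokine genes (10 above background), 0 passed for the label 1 mg/kg and 1 in each direction for the label 10 mg/kg, with medians of -0.02 and -0.01. The higher one was Tapbp, a chaperone of MHC class I loading, with a difference of 0.29 (adjusted p = 0.516). Of 8 negative regulators (7 above background), 1 was lower for the label 1 mg/kg and 2 for the label 10 mg/kg, with medians of -0.0002 and -0.07. Ptpn6, a phosphatase of immune cells, differed by -0.24 and -0.28 (adjusted p = 0.448 for both, limma). Trex1, an exonuclease that removes cytosolic DNA, differed by -0.15 and -0.31 (adjusted p = 0.605 and 0.440, limma). Over all probe sets 10.3% and 9.59% passed the unadjusted threshold used for these lists.

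**Figure D5:**
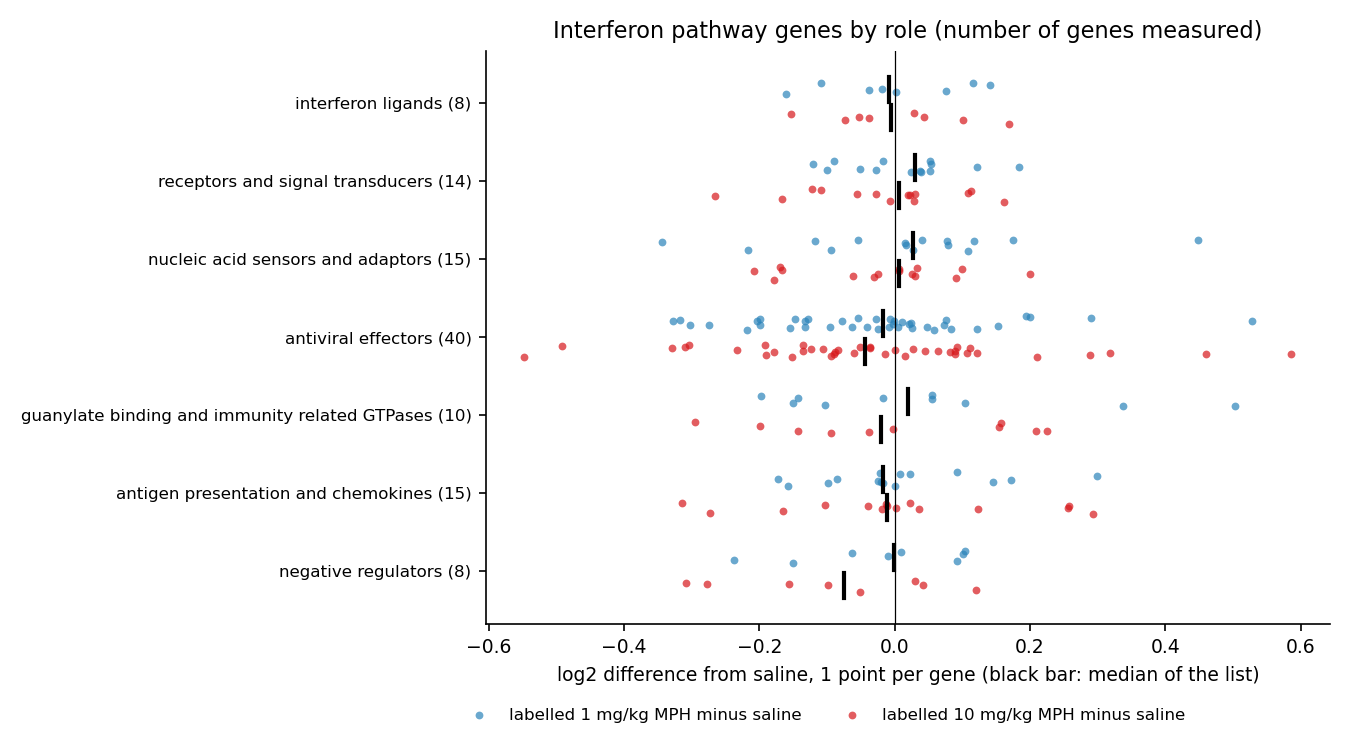
Log2 differences from saline of 110 interferon pathway genes in 7 lists, 1 point per gene and colour, with a black bar at the median of each list. Medians lie between -0.07 and 0.03, and no gene passed limma's test after adjustment.

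The probe sets most like Lgals3bp were sought among 20532 single-gene probe sets above background, by the root mean square difference of log2 values centred on each probe set's mean over the 9 arrays. Members were left out of this search. Chid1, which encodes a chitinase domain protein, was nearest at 0.080, against a size of 0.324 for the Lgals3bp pattern itself. It was followed by Tmem189, an enzyme of plasmalogen synthesis, at 0.092, Ap5s1, a subunit of an endosomal adaptor complex, at 0.098, Dnajc11, a mitochondrial chaperone, at 0.119, and Cds2, an enzyme of phosphoinositide synthesis, at 0.121. None of these 5 is among the 110 pathway genes. With 83 of those above background and 20532 probe sets searched, this was likely in advance and says nothing on the pathway. Chid1 differed from saline by -0.40 and -0.58, and the other 4 by -0.38 to -0.58 and -0.47 to -0.62. These falls follow from the choice by likeness to Lgals3bp, so they are a description only. For the mean of the 9 other members, whose pattern had a size of 0.090, the nearest were Sec22c (0.018), Arnt (0.029), Psmd5 (0.029), Nfyb (0.030) and Serinc3 (0.033).

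Other measures also set the MPH arrays apart from saline, though not in the same order between the MPH groups as Lgals3bp. The mean of 7 dopamine neuron markers (Th, Slc6a3, Ddc, Nr4a2, Pitx3, En1 and Aldh1a1) was 9.61 to 9.96 in saline, 9.23 to 9.39 in the arrays with the label 1 mg/kg and 9.32 to 9.41 in those labelled 10 mg/kg, with 7 of 7 markers lower on average for both labels. Of the 14 cell marker lists it was the one whose MPH arrays all lay apart from saline. The signal of the 3′ end of Actb over its 5′ end, a sign of RNA integrity or labelling, was 0.88 to 0.93 on the log2 scale in saline and 1.03 to 1.19 in the MPH arrays, while the same difference for Gapdh overlapped. The part of these measures in the Lgals3bp difference was not tested.

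Markers of other cells that the dissected tissue can hold were read in the same way. The mean of 7 microglia markers was 6.82 to 7.20 in saline, 6.83 to 7.09 in the arrays with the label 1 mg/kg and 6.54 to 6.90 in those labelled 10 mg/kg, with 5 and 7 of the 7 lower on average. Endothelial markers (8 genes) differed from saline by 0.03 and 0.02 and astrocyte markers (8 genes) by -0.01 and 0.03. Reactive astrocyte markers (7 genes, 2 near background) differed by 0.003 and 0.29, with ranges that overlapped saline for both labels. Mural cell markers (4 genes) differed by 0.21 for both labels, with the arrays labelled 1 mg/kg above all saline arrays. Red blood cell markers (2 genes) differed by 0.02 and 0.29, with the arrays labelled 10 mg/kg above all saline arrays. Oligodendrocyte markers (7 genes) were 10.66 to 10.85 in saline, 10.48 to 10.93 in the arrays with the label 1 mg/kg and 10.15 to 10.61 in those labelled 10 mg/kg, which lay below all saline arrays. Raphe serotonin neuron markers (2 genes) differed from saline by -2.30 and -1.89, with the arrays labelled 1 mg/kg below all saline arrays. Thalamus markers (3 genes) differed by 0.99 and 0.17, with the arrays labelled 1 mg/kg above all saline arrays. Choroid plexus markers (6 genes) differed by 0.24 and 0.47, with the arrays labelled 10 mg/kg (5.45 to 5.79) above those of saline (5.02 to 5.23). Meningeal and fibroblast markers (6 genes) differed by 0.27 and 0.57, with ranges that overlapped saline for the label 1 mg/kg and for the label 10 mg/kg. Of 8 leukocyte markers, 5 were near background (Cd3g, Cd8a, Ms4a1, S100a8 and S100a9). The part of these cells in the values of Lgals3bp and the interferon genes was not tested.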

How the data were processed

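The authors made the deposited log2 values from Affymetrix HT MG-430 PM arrays with Robust Multichip Average, a method of background correction, quantile normalization and summary of the probes; its version is not given in the sources used here. ComBat for a batch of the 3 replicates is named in the methods, without saying if it was applied before deposit. The table holds 45141 probe sets. After 104 controls were left out, 45037 were tested, of which 28898 name 1 gene, 551 several and 15588 none in the platform annotation.

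A single linear model (lmFit and eBayes of limma 3.58.1, R 4.3.3) covered all probe sets and all 9 arrays, with terms for group and for replicate number (the block). Benjamini-Hochberg adjustment ran over all probe sets at 0.05. The block was added here for the batch that the methods correct with ComBat. The methods name no block in limma. If the deposited values already hold that correction, the block repeats it. Deviations of arrays with the same number correlated at -0.132 to -0.626. The replicate number held far less variance than unrelated numbers would (median mean-square ratio to the residual 0.073, against 0.828), so the replicate numbers had nearly equal means in the deposited values and SDs within groups may be too small. The fit was tested on simulated data. The number of arrays limits the precision.

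The members, gene lists and tests were chosen with earlier results of these data known. Named were all member probe sets, up to 3 genes per pathway list with the smallest p, a fixed set of receptor pathway genes, and the 5 nearest patterns, and of these the text prints those it describes. Promoters are from RefSeq (GRCm38.p6). Correlations used exact permutation tests over all pairings. Alternatives were no replicate block, only the groups compared, a second quantile normalization, median centring, only probe sets above 3.58, an intensity trend with limma's robust option, each array left out, and other probe set rules. The study's lists of changed genes were used only to check the dose labels and to see if Lgals3bp is listed.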

Additional observations from a re-analysis of the deposited data

Results flagged for a closer look

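The second Gbp2 probe set (1435906_PM_x_at) lay on opposite sides of the saline mean in the MPH groups. All 3 arrays labelled 1 mg/kg lay above the saline mean of 5.24 and all 3 labelled 10 mg/kg lay below it. The difference between the MPH groups was -0.18 on the log2 scale, and limma's adjusted p of 0.774 for that difference missed the threshold.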

How the results depend on the processing

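Over 330 refits of 22 single-gene results, 0 passed the adjusted threshold (lowest adjusted p 0.139) and 308 kept the sign. Without the replicate block 54 and 115 of all probe sets were called for the labels 1 mg/kg and 10 mg/kg, with an intensity trend and the robust option 2 and 1, and with an array left out 0 to 1 for both. Members at an unadjusted p of 0.05 numbered 0 to 2 (label 1 mg/kg), 0 to 1 (label 10 mg/kg) and 0 to 2 (between MPH groups) with an array left out. Between MPH groups they numbered 2 with no replicate block, after quantile normalization and after median centring. The median of the other members ran from -0.131 to 0.077 and from -0.126 to 0.133 with an array left out. Without the block 15 and 20 pathway genes passed unadjusted (13.6% and 18.2%, against 18.5% and 17.7% of all probe sets). Lgals3bp ran from -0.594 to -0.414 and from -0.837 to -0.609 with an array left out, a sign that its choice had fixed.

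With an array left out, differences took both signs for 11 results. For the label 1 mg/kg they were Ifit3 (-0.431 to 0.434), Irf1 (-0.089 to 0.163), Irf7 (-0.120 to 0.094), Ifitm3 (-0.057 to 0.220), Usp18 (-0.312 to 0.067) and Gbp2 1418240_PM_at (-0.222 to 0.341). For the label 10 mg/kg they were Ifit3 (-0.238 to 0.627), Irf1 (-0.210 to 0.022), Ifitm3 (-0.108 to 0.248), Usp18 (-0.144 to 0.251) and Gbp2 1418240_PM_at (-0.338 to 0.225). The cause was not tested. For both labels, Ifit1 (-0.415 to -0.054 and -0.307 to -0.038), Irf9 (-0.369 to -0.062 and -0.230 to -0.025), Ifit2 (0.012 to 0.143 and 0.052 to 0.196) and the second Gbp2 probe set (0.053 to 0.132 and -0.133 to -0.008) kept 1 sign over a wide range. With or without the replicate block, no member probe set tested passed the adjusted threshold. Between MPH groups 5 of the 110 pathway genes passed unadjusted with the block, against 6.39% of all probe sets, and 7 without it. Of the 7 dopamine neuron markers, Th passed the adjusted threshold in limma without the block for both labels (adjusted p = 0.039 and 0.041), against 0.12% and 0.255% of all probe sets. With the block its adjusted p was 0.341 and 0.329.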
